A study of Homo sapiens with 8 samples.

Results

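The germline and cancer-testis genes are genes whose activity is, in adult tissues, mostly restricted to germ cells, together with relatives of the same families. The members were taken from a gene count table by their symbols: every gene whose symbol begins with MAGE (A to H), GAGE, PAGE, XAGE, SSX, SPANX, CTAG, TDRD, DDX4, DAZL, DPPA, SYCP or PIWIL, and in addition SOHLH1, SOHLH2, PRAME, BRDT, TEX14, TEX15, MAEL, HORMAD1 and ATAD2. The rule matched 94 genes. Of these, 4 pseudogenes were dropped, which left 90 members of the 30434 genes in the table. The rule itself uses symbols alone. The members lie on chromosome X in 53 cases. By their letters alone the rule also takes in DDX41, DDX42, DDX46, DDX47 and DDX49, which are DEAD-box RNA helicases of ordinary cells and not germ cell genes, as well as SSX2IP, which encodes a partner of an SSX protein. These were kept as the rule has them and are described apart. The germ cell helicase DDX4, SYCP1, PIWIL1, DPPA5, CTAG1B, SSX5 and the SPANX genes were not analysed here.

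Cancer-testis genes are expressed in the developing germ cells of the testis and are kept off in most other tissues, in large part by DNA methylation of their promoters and by repressive chromatin. Tumours can switch them on again, and their protein products are then seen by the immune system as antigens, which is how MAGEA1 and its relatives were found. Many sit on chromosome X in clusters of near-identical copies, whereas genes of meiosis and of the piRNA pathway, in which PIWI proteins and their Tudor domain (TDRD) partners silence transposons in germ cells, lie mostly on other chromosomes.

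RNA was measured in SKBR3, an established human breast cancer line with amplified ERBB2 (HER2). There were 4 libraries of control cells, whose genotype is given as WT, and 4 of FOXA1 knockdown cells, a stable line made with lentiviruses that carried 3 short hairpin RNAs against FOXA1, a pioneer factor of luminal breast cells. Both were grown in DMEM with fetal bovine serum. Whether the control cells carried a control virus, whether the knockdown line is a pool or a clone, and whether the libraries came from separate cultures is not stated in the sources used here, so p-values measure the spread between these libraries, which may be technical. Library totals lay between 19087878 and 23786684 counts. FOXA1 itself had 4071 to 4397 counts in the control libraries and 83 to 92 in the knockdown libraries, 2.07% of the control level in CPM (CPM being each count as a share of its library's total after scaling by edgeR's TMM method, times 1000000). Levels are in bulk RNA, in which fewer cells of a type and less RNA per cell cannot be told apart.

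Of the 90 members, 42 had enough counts to be tested and 48 did not. With edgeR's quasi-likelihood test and Benjamini-Hochberg adjustment over the 16430 genes tested, at a threshold of 0.05, 26 members rose in the knockdown libraries, 9 fell and 7 were not called. Read against the whole table, the share called says little about the members, since 83.33% of the tested members were called against 77.1% of all tested genes, and the CPM of the groups did not overlap for 35 of the 42 against 72.0% of all tested genes. The direction and the size differed more from the table, but the filter on low counts bears on both. Rises made up 26 of the 42 against 39.4% of all tested genes, and falls 9 of the 42 against 37.7%. Rises of at least 2-fold were made by 15 of the 42 members against 14.9% of all tested genes, and falls of at least 2-fold by 5 of the 42 against 13.4%. The median log2 fold change, knockdown over control, was 0.68 over the tested members and 0.02 over all tested genes. These counts describe only members that passed the filter on low counts, and a member that is high in just one group passes through that group. Of the 15 members with rises of at least 2-fold, only CTAG1A, PIWIL4, SYCP2L and MAGEH1 would have passed by their control libraries alone. Of the 5 with falls of at least 2-fold, only TDRD9 would not have passed by its knockdown libraries alone. Without the 5 DEAD-box genes, 23 of 37 tested members rose and 8 fell. Without these and the 15 broadly expressed members (MAGED, MAGEE, MAGEF and MAGEH genes, TDRD3, TDRD7, ATAD2, SSX2IP and the CTAGE genes), 19 of 27 rose and 4 fell.

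**Figure D1:**
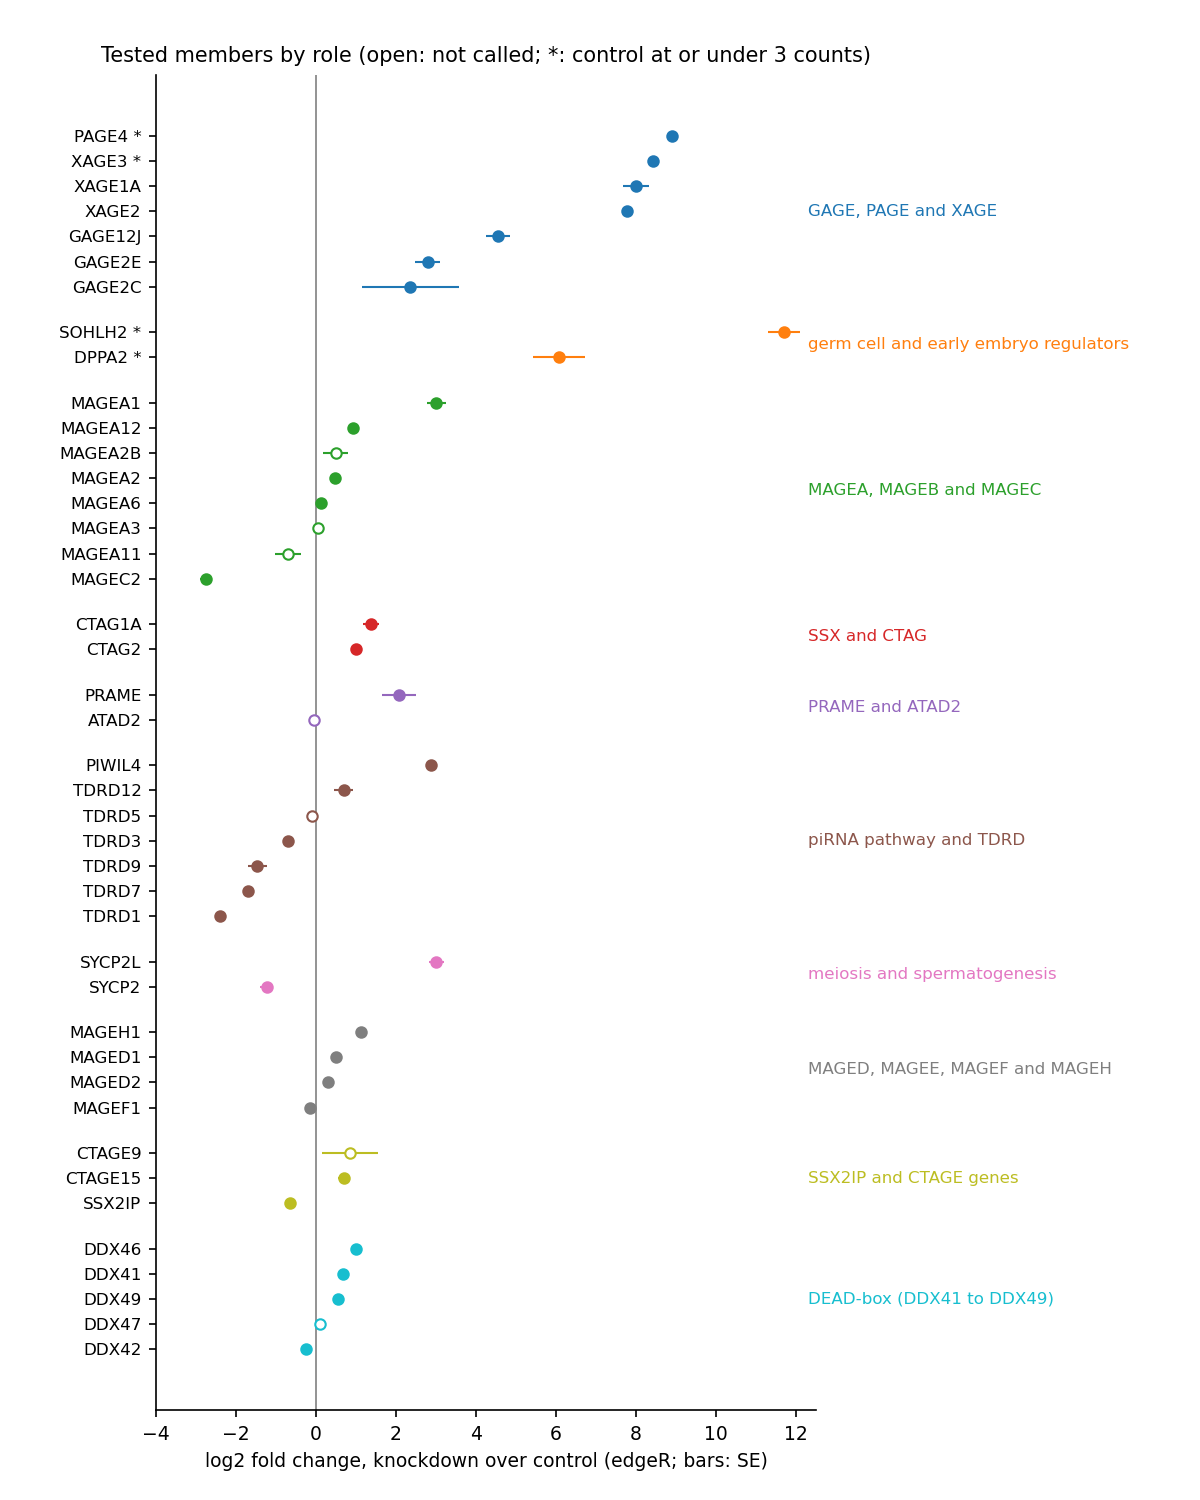
Log2 fold change (knockdown over control, edgeR) of the 42 tested members on the horizontal axis, grouped by role. Filled points passed an adjusted p of 0.05, open points did not, and bars are standard errors from the 4 and 4 libraries. The 7 GAGE, PAGE and XAGE genes all lie above 2, but none would have passed the filter on low counts by its control libraries alone. TDRD1, TDRD7, TDRD9, SYCP2 and MAGEC2 lie below -1. An asterisk marks genes at or under 3 counts throughout the control libraries, whose plotted value depends on the prior count of the fit and is no measure of size.

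The GAGE, PAGE and XAGE genes, small acidic proteins encoded in clusters on the short arm of chromosome X, held 7 of the 15 rises of at least 2-fold. Of the 19 genes 7 could be tested, and all 7 rose. None of these would have passed the filter on low counts by its control libraries alone, so a fall could hardly have been called among them. XAGE1A (chrX:52495676-52500812, plus strand of GRCh38, position from GENCODE 29) had 16, 8, 20 and 22 counts in the 4 control libraries and 4731, 4392, 3957 and 4081 in the 4 knockdown libraries. That is 0.748 ± 0.276 CPM in control and 193 ± 10.4 in knockdown (SD, n = 4 each), a 258-fold difference (log2 fold change 8.0 ± 0.32, SE, edgeR adjusted p = 4.94e-24). XAGE2, a neighbour on the same strand (chrX:52369030-52375680), had 10, 9, 8 and 13 counts in control and 2355, 2260, 2172 and 2160 in knockdown. It rose 223-fold (log2 fold change 7.78 ± 0.13, edgeR adjusted p = 1.11e-27). For both genes every knockdown library lies far above every control library. The 250 bases before their RefSeq starts on GRCh38.p14 are shown because control cells nearly lacked these transcripts and knockdown cells made them in quantity. They read on the plus strand, 5' to 3', with CpG dinucleotides, the sites of DNA methylation, in capitals.
XAGE2 (chrX:52368771-52369020): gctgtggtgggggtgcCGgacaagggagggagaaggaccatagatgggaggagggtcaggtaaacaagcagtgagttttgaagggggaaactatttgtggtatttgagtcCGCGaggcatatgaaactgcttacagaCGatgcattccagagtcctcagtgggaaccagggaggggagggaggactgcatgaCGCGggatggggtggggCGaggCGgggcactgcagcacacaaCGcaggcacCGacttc
XAGE1A (chrX:52495627-52495876): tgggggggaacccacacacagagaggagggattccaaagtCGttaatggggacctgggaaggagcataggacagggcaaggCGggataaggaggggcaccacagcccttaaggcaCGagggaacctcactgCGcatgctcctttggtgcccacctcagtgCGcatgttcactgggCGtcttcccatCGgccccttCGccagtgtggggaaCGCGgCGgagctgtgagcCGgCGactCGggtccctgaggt
The XAGE2 window has 10 CpG and the XAGE1A window 14, against a median of 11 over the 27305 genes of the promoter table. The XAGE1A window belongs to the first of 2 listed RefSeq starts, and most of it lies inside the gene as GENCODE 29 places it. The XAGE1A window is identical to that of its copy XAGE1B. Methylation was not measured.

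XAGE3, on the minus strand of the same region (chrX:52862525-52868068), had no count in any control library and 42, 38, 40 and 52 in knockdown, at least 13.7-fold higher against a floor of 3 counts (edgeR adjusted p = 7.47e-12). PAGE4, a gene known from prostate and placenta (chrX:49829260-49833973), had no count in control and 67, 62, 49 and 64 in knockdown, at least 19.03-fold higher (edgeR adjusted p = 1.47e-13). The floor of 3 counts equals at most 0.142 CPM in a control library and 0.153 CPM in a knockdown library, and covers counting error only. Both genes were thus detected in every knockdown library and in no control library, where they reached 1.95 ± 0.364 and 2.71 ± 0.229 CPM (SD, n = 4).

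Among the GAGE genes, GAGE12J (chrX:49322057-49329384) had 7, 5, 7 and 3 counts in control and 159, 125, 123 and 120 in knockdown (log2 fold change 4.54 ± 0.30, edgeR adjusted p = 2.95e-16). GAGE2E had 3, 9, 6 and 5 counts in control and 50, 41, 32 and 41 in knockdown (2.79 ± 0.31 on the log2 scale, edgeR adjusted p = 1.29e-09). GAGE2C had 17, 0, 11 and 13 counts in control and 71, 44, 46 and 54 in knockdown (2.36 ± 1.22 on the log2 scale, edgeR adjusted p = 0.00171), where control replicate 2 has none and the error is wide. The groups of all 3 genes were apart. GENCODE 29 gives the identifiers of GAGE2C and GAGE2E the names GAGE12F and GAGE2A, and the copies share most of their sequence. Of the stretches of 31 bases in GAGE12J transcripts, 93.9% also occur in transcripts of other genes, and the shares were 97.3% for GAGE2C and 93.4% for GAGE2E. How reads were divided among such copies bears on each copy's count, so sums were added after the counts were seen. Over the 9 GAGE genes the sum was 35, 25, 33 and 27 counts in control and 313, 251, 242 and 265 in knockdown, or 1.37 ± 0.252 and 12.0 ± 1.27 CPM (SD, n = 4), and it rose as well (log2 fold change 3.14 ± 0.15, edgeR adjusted p = 1.91e-17).

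The other 12 genes of these families were not tested. XAGE1B, whose stretches of 31 bases are found in XAGE1A in 76.2% of cases, had no count in control and 34, 18, 15 and 9 in knockdown, and adding it to XAGE1A left the log2 fold change at 8.0 (edgeR adjusted p = 1.49e-23). PAGE1 had 1, 0, 0 and 0 counts in control and 6, 7, 5 and 4 in knockdown. XAGE5 did not exceed 4 counts in any library, and neither did PAGE2, PAGE2B and PAGE5. GAGE1 had 0 to 3 counts in control and 5 to 21 in knockdown. Of the remaining GAGE copies, GAGE12C went from 2, 0, 0 and 0 counts to 11, 17, 14 and 0, GAGE12E from 0, 5, 5 and 0 to 0, 0, 0 and 27, and GAGE12H, GAGE12B and GAGE13 stayed at 9 counts or fewer in every library. The jumps of GAGE12C and GAGE12E to and from 0 between libraries of one group are seen only in single copies and not in the summed counts.

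**Figure D2:**
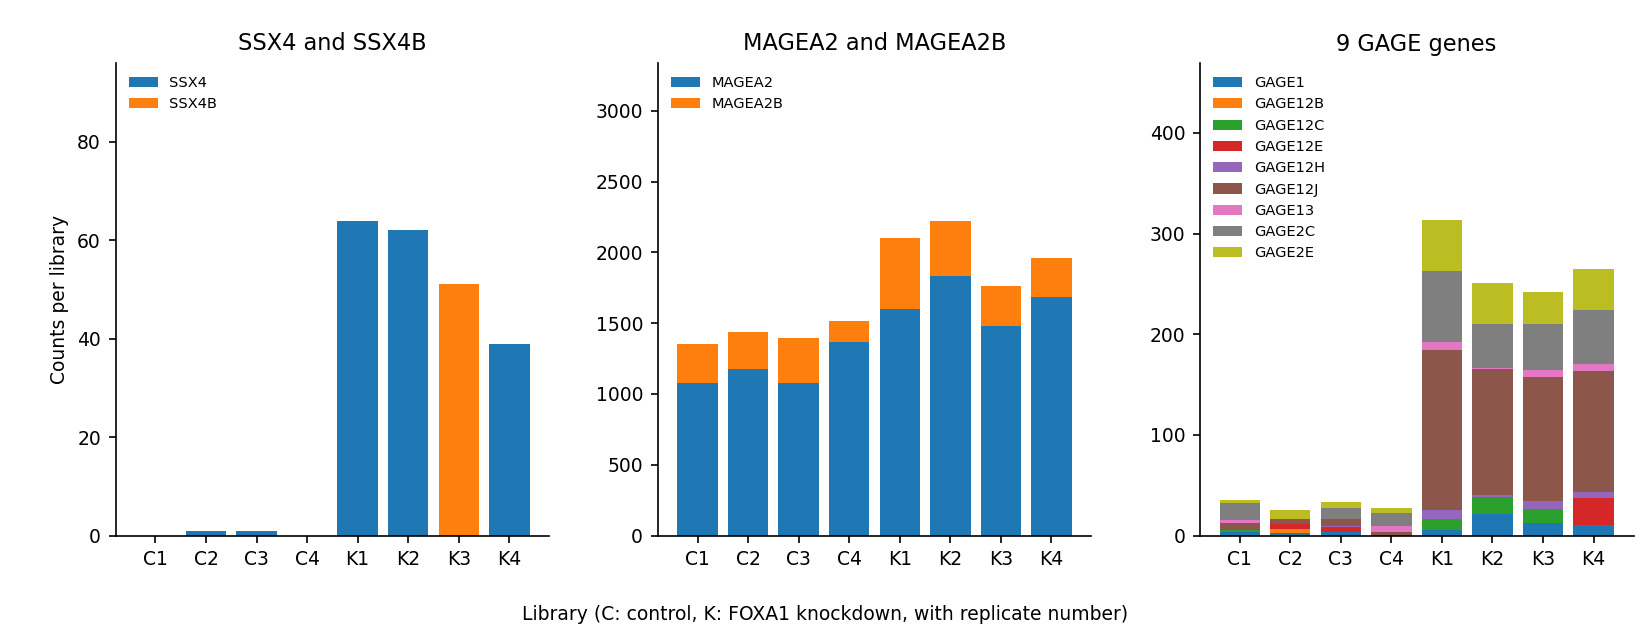
Counts per library (vertical axes, linear from 0) of near-identical copies, stacked, for SSX4 and SSX4B (left), MAGEA2 and MAGEA2B (middle) and the 9 GAGE genes (right). C and K mark control and knockdown libraries with their replicate number. All of the SSX4 signal of knockdown replicate 3 is assigned to SSX4B, and the stacked totals are 64, 62, 51 and 39 counts in the 4 knockdown libraries.

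The XAGE genes did not rise alone in their region. In the segment of chromosome X from 51 to 53 Mb the 4 tested members (XAGE1A, XAGE2, XAGE3 and MAGED1) all rose. Of the 6 other protein-coding genes tested there, 5 rose and none fell, with a median log2 fold change of 8.33. The segment was chosen after its values were seen. The XAGE genes there would not have passed the filter on low counts by their control libraries alone, nor would EZHIP, NUDT10, NUDT11 and GSPT2. EZHIP, which encodes an inhibitor of the Polycomb methyltransferase that is itself expressed in germ cells, lies 0.96 Mb from XAGE2 and had 0, 0, 0 and 1 counts in control and 279, 281, 212 and 262 in knockdown, at least 81.2-fold higher (edgeR adjusted p = 5.66e-21). NUDT10 was at least 56.3-fold higher, NUDT11 at least 24.1-fold and GSPT2 at least 20.3-fold, each with 1 count or none in every control library. FAM156A and MAGED1, which control cells expressed, rose by 0.48 and 0.51 on the log2 scale, and FAM156B was not called (0.13, edgeR adjusted p = 0.628). Around the GAGE genes and PAGE4, from 49 to 51 Mb, the 4 tested members rose with a median of 3.66, while of 16 other protein-coding genes tested 7 rose and 6 fell with a median of 0.14. Those 16 ranged from -3.26 (PLP2) to 8.22 (DGKK) on the log2 scale. The 4 members would not have passed the filter on low counts by their control libraries alone.

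**Figure D3:**
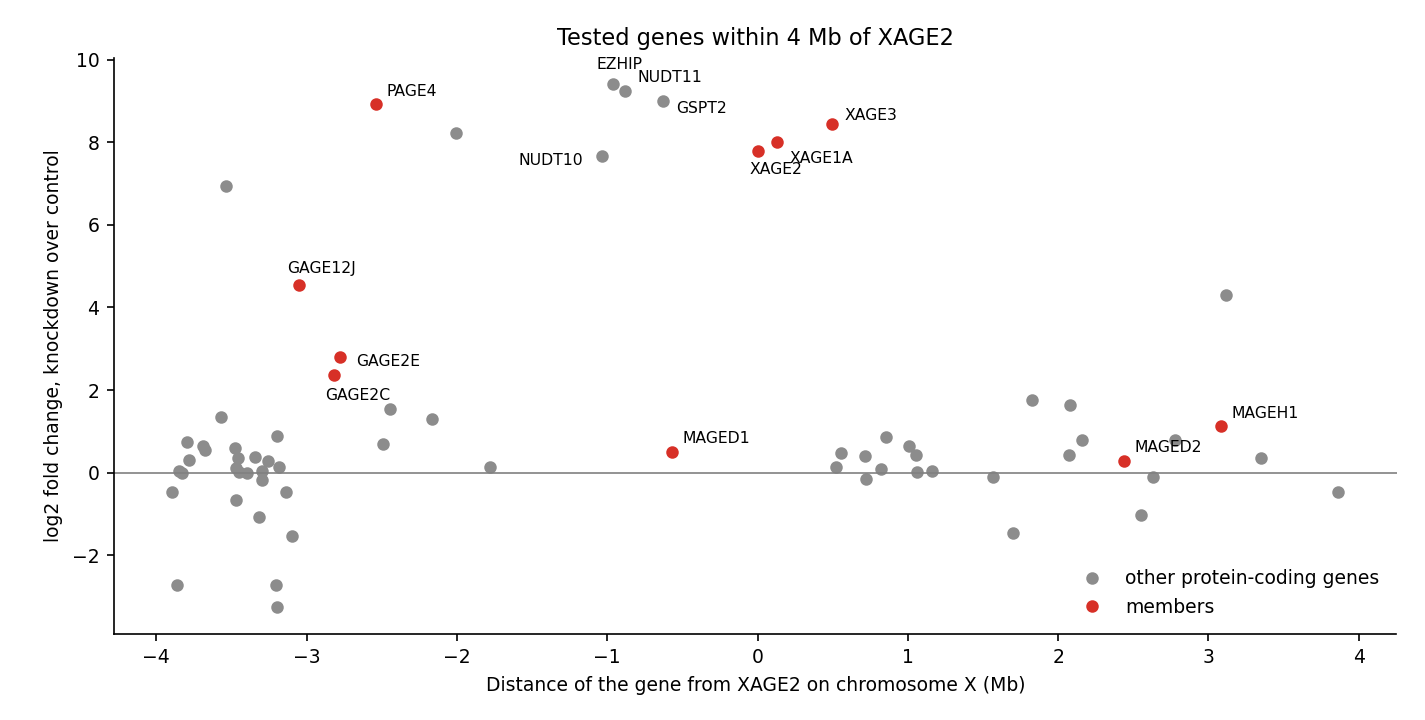
Log2 fold change (vertical axis) of the tested members (red) and other protein-coding genes (grey) within 4 Mb of XAGE2, by distance from its start (horizontal axis, Mb). NUDT10, EZHIP, NUDT11 and GSPT2, between -1.04 and -0.63 Mb, stand as high as XAGE2, XAGE1A, XAGE3 and PAGE4, with most other genes near 0. DGKK (8.22) and PCSK1N (6.93), which are no members, also stand high. Values of genes at or under 3 counts throughout the control libraries depend on the prior count of the fit.

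The MAGEA, MAGEB and MAGEC genes, which share the MAGE homology domain and whose products bind RING ubiquitin ligases, behaved differently from one another. Of 20 genes, 8 were tested, 4 rose and 1 fell. MAGEA3 (chrX:152698752-152702347) had the highest level per length of these families and stood at 171, 166, 168 and 172 CPM in control and 176, 169, 174 and 176 in knockdown. It was not called (log2 fold change 0.04 ± 0.02, edgeR adjusted p = 0.327), although it passed with upper-quartile or library-size scaling (0.10 and 0.12 on the log2 scale). MAGEA6, which shares 64.3% of its stretches of 31 bases with MAGEA3, had 148, 150, 149 and 145 CPM in control and 164, 153, 165 and 165 in knockdown, and rose by 0.13 ± 0.03 on the log2 scale (edgeR adjusted p = 0.00265). MAGEA12 rose 1.91-fold, from 24.9, 26.1, 26.4 and 27.0 CPM to 49.6, 46.8, 52.9 and 49.6 (edgeR adjusted p = 8.66e-15). Thus the copies that SKBR3 control cells already expressed strongly changed by less than 2-fold.

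MAGEA2 rose 1.40-fold, from 49.3, 53.3, 51.1 and 58.9 CPM to 68.1, 75.2, 75.5 and 77.8 (edgeR adjusted p = 2.80e-08). Its copy MAGEA2B, with which it shares 97.8% of its stretches, had 12.6, 12.0, 15.2 and 6.42 CPM in control and 21.1, 16.0, 14.4 and 12.9 in knockdown, with overlapping groups, and was not called (0.49 ± 0.31 on the log2 scale, edgeR adjusted p = 0.163). Summed, the pair went from 64.7 ± 1.96 to 90.3 ± 0.883 CPM (SD, n = 4) and rose by 0.48 ± 0.02 (edgeR adjusted p = 3.06e-11), so that the spread of MAGEA2B between libraries is not seen in the sum. The sum of MAGEA3 and MAGEA6 rose by 0.08 on the log2 scale (edgeR adjusted p = 0.0276). MAGEA1, the founding member (chrX:153179285-153183880), was low in control with 16, 8, 13 and 17 counts and reached 113, 123, 95 and 114 in knockdown, an 8.16-fold rise (log2 fold change 3.01 ± 0.23, edgeR adjusted p = 3.99e-14). It was the only tested MAGEA gene that rose by at least 2-fold. By its control libraries alone, MAGEA1 would not have passed the filter on low counts. MAGEA11, which encodes a coregulator of the androgen receptor, had 11 to 20 counts in control and 4 to 12 in knockdown and was not called (-0.70 ± 0.33 on the log2 scale, edgeR adjusted p = 0.0551). The 11 MAGEA genes together stood at 410 ± 1.87 CPM in control and 481 ± 10.5 in knockdown (SD, n = 4), 1.17-fold.

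MAGEC2 (chrX:142202345-142205290, minus strand), whose product binds the ligase TRIM28, moved the other way. It had 104, 118, 114 and 133 counts in control and 17, 23, 12 and 18 in knockdown, and fell to 14.6% of the control level (log2 fold change -2.75 ± 0.14, edgeR adjusted p = 2.88e-14). The groups are apart, and it was the only tested X-linked member that fell. The 250 bases before its RefSeq start, on the minus strand of GRCh38.p14 with CpG in capitals, are given for comparison with the XAGE windows, and hold 6 CpG.
MAGEC2 (chrX:142205291-142205540): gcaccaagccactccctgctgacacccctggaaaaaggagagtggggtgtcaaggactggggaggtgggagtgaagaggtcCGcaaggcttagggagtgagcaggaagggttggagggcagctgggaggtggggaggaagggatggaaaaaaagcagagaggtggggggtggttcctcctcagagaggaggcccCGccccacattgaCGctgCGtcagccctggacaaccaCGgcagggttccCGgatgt
The 12 untested genes were MAGEA4, MAGEA8, MAGEA9B, MAGEA10, MAGEC1, MAGEB1, MAGEB2, MAGEB6, MAGEB6B, MAGEB10, MAGEB16 and MAGEB17, of which none had more than 6 counts in any library. None of the 7 MAGEB genes could be tested.

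CTAG2 (LAGE-1) and CTAG1A (NY-ESO-1) encode closely related antigens near the end of the long arm of chromosome X. CTAG2 (chrX:154651972-154653579) stood at 97.2, 95.2, 105 and 93.9 CPM in control and 185, 178, 218 and 196 in knockdown, and rose 1.98-fold (log2 fold change 0.99 ± 0.07, edgeR adjusted p = 1.11e-09). CTAG1A had 17, 24, 18 and 14 counts in control and 57, 46, 36 and 53 in knockdown (1.37 ± 0.21 on the log2 scale, edgeR adjusted p = 1.89e-06). In both genes the control and knockdown values did not overlap. Of the stretches of 31 bases in the transcripts of CTAG1A, 92.5% also occur in other genes and 50.9% in CTAG2, and the part of CTAG2 reads in its counts was not tested. The segment beyond 150 Mb holds these genes and the tested MAGEA genes other than MAGEA11, which lies at 149.69 Mb. In it 6 of 8 tested members rose and none fell, while 22 of 61 other protein-coding genes rose and 33 fell. MAGEA1, among the rises there, would not have passed the filter on low counts by its control libraries alone. This comparison was not tested, and copies in the segment share sequence. The 6 SSX genes, transcriptional repressors known from the fusion of synovial sarcoma, were not tested singly. SSX4 had 0, 1, 1 and 0 counts in control and 64, 62, 0 and 39 in knockdown, and SSX4B none in control and 0, 0, 51 and 0 in knockdown. The transcripts of these copies share every stretch of 31 bases. Their sum, added after the counts were seen, was 0, 1, 1 and 0 counts in control and 64, 62, 51 and 39 in knockdown, and rose (edgeR adjusted p = 3.43e-13). By its control libraries alone, the sum would not have passed the filter on low counts. SSX2 and SSX2B together reached no more than 1 count in any control library and had 6, 6, 15 and 5 in knockdown. SSX1 and SSX3 had 3 counts or fewer in every library.

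PRAME, an antigen of melanoma that represses retinoic acid receptor signalling, was scarce: 6, 8, 2 and 7 counts in control and 21, 31, 29 and 19 in knockdown, a rise of 2.08 ± 0.42 on the log2 scale (edgeR adjusted p = 2.56e-06). By its control libraries alone, PRAME would not have passed the filter on low counts. ATAD2, a bromodomain protein of replicating cells that is not limited to germ cells, stood at 1097, 1067, 921 and 1113 CPM in control and 1033, 1043, 1012 and 980 in knockdown. Its groups overlapped and it was not called (-0.05 ± 0.07 on the log2 scale, edgeR adjusted p = 0.426). Without control replicate 3, its lowest control library, ATAD2 fell by 0.11 on the log2 scale (edgeR adjusted p = 0.00207).

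SOHLH2 had the largest bound on its rise among the members. It is a basic helix-loop-helix factor that starts the differentiation of spermatogonia and oocytes (chr13:36168208-36214615, minus strand). It had 0, 1, 0 and 0 counts in control and 1341, 1369, 1152 and 1151 in knockdown. Its level in knockdown was 56.3 ± 2.27 CPM (SD, n = 4), at least 395-fold above the control floor (edgeR adjusted p = 5.65e-27). All knockdown libraries agree closely, and the read-through transcript CCDC169-SOHLH2, which overlaps it on the same strand and shares 42.8% of its stretches of 31 bases, had a mean of 1.5 counts in control and 0 in knockdown. The region did not move with it: the 50 nearest tested protein-coding genes had a median log2 fold change of -0.53. The 250 bases before the RefSeq start, on the minus strand of GRCh38.p14 with CpG in capitals, hold 20 CpG and are shown because this gene went from the floor to a high level away from the X clusters.
SOHLH2 (chr13:36214557-36214806): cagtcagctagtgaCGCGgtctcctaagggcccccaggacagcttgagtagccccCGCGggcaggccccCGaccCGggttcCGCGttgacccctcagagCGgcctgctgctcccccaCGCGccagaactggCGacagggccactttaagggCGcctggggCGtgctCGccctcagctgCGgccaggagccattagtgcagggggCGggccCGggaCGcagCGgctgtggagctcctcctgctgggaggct
Its partner SOHLH1 went the other way in counts but was too low to test, with 9, 10, 13 and 6 in control and 1, 3, 0 and 3 in knockdown.

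DPPA2, a chromatin protein of pluripotent cells and early germ cells on chromosome 3, had 3, 0, 1 and 3 counts in control and 137, 147, 109 and 120 in knockdown, at least 40.3-fold higher (edgeR adjusted p = 8.69e-17). Its usual partner DPPA4 lies beside it but had 8, 12, 4 and 11 counts in control and 4, 13, 5 and 4 in knockdown, too few to test. DPPA3 had at most 3 counts and DAZL, a defining RNA-binding protein of germ cells, at most 4 in any library. The 2 tested regulators thus rose from the floor without the other 4 reaching the level of a test. Neither of the 2 would have passed the filter on low counts by its control libraries alone.

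The piRNA pathway and TDRD genes held 4 of the 9 members that fell: of 11 genes 7 were tested, 4 fell and 2 rose, with a median log2 fold change of -0.70. Of those that fell, TDRD3 and TDRD7 are counted among the broadly expressed members. TDRD1 (chr10:114179270-114232304, plus strand), a scaffold that binds methylated PIWI proteins, was well expressed in control at 93.9, 94.9, 83.9 and 93.0 CPM and had 16.0, 19.2, 17.4 and 16.2 in knockdown. It fell to 18.8% of the control level (log2 fold change -2.41 ± 0.07, edgeR adjusted p = 3.68e-22). Every knockdown library is far under every control library, and the 50 nearest tested protein-coding genes had a median log2 fold change of 0.0012. The 250 bases before its RefSeq start on the plus strand of GRCh38.p14, with CpG in capitals, hold 13 CpG and are shown as those of the member with the highest level per length in control among those that fell by at least 2-fold.
TDRD1 (chr10:114179037-114179286): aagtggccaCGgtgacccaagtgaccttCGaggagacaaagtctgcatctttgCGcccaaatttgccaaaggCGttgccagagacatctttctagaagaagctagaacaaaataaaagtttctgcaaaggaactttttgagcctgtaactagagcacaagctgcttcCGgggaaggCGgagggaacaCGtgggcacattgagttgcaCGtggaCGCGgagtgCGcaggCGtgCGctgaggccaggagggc

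TDRD7, a component of germ granules that is also needed in the lens, fell to 31.1% of control, from 12.1, 13.1, 10.2 and 12.6 CPM to 3.66, 3.36, 4.07 and 3.84 (edgeR adjusted p = 6.42e-14). TDRD9, a helicase of the pathway, fell from 23, 23, 13 and 24 counts to 10, 6, 7 and 7 (log2 fold change -1.47 ± 0.24, edgeR adjusted p = 7.87e-05). By its knockdown libraries alone, TDRD9 would not have passed the filter on low counts. TDRD3, a widely expressed reader of methylated arginine, fell to 61.5% of control, from 16.3, 15.4, 14.2 and 16.5 CPM to 9.10, 9.63, 10.1 and 9.49 (edgeR adjusted p = 2.77e-09). The groups of these 3 genes did not overlap. Control replicate 3 was the lowest control library for TDRD1, TDRD3, TDRD7 and TDRD9, and all 4 falls were also called without it. TDRD5 had 12.4, 12.9, 12.4 and 12.4 CPM in control and 11.8, 11.8, 11.6 and 11.2 in knockdown. Its groups were apart by little, and it was not called (-0.11 ± 0.02 on the log2 scale, edgeR adjusted p = 0.139).

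PIWIL4, the PIWI protein of the nucleus, rose from 24, 23, 16 and 23 counts to 173, 165, 128 and 178 (log2 fold change 2.88 ± 0.14, edgeR adjusted p = 1.71e-15). FUT4 lies within it on the same strand, shares 13.5% of the stretches of 31 bases in its transcripts and rose by 1.70 on the log2 scale, from a mean of 218 to 718 counts; its part in the PIWIL4 counts was not tested. TDRD12 rose from 9, 15, 11 and 12 counts to 22, 14, 19 and 22 (0.69 ± 0.24 on the log2 scale, edgeR adjusted p = 0.0247) with overlapping groups in CPM, and the call was lost with DESeq2 (adjusted p = 0.0922). By its control libraries alone, TDRD12 would not have passed the filter on low counts. PIWIL2, PIWIL3, TDRD6 and MAEL had 7 counts or fewer in every library. These are too few to test.

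Of the 7 genes of meiosis and spermatogenesis, 2 were tested and moved in opposite directions. SYCP2, an axial element protein of the synaptonemal complex on chromosome 20, fell from 500, 476, 333 and 537 counts to 236, 231, 174 and 157, to 42.7% of control (log2 fold change -1.23 ± 0.16, edgeR adjusted p = 2.40e-05). SYCP2L, its paralogue known from oocytes, rose from 23, 36, 20 and 32 counts to 261, 233, 222 and 190 (3.01 ± 0.20 on the log2 scale, edgeR adjusted p = 4.34e-16). Neither gene's groups overlapped. Among the untested genes TEX15, which acts in meiotic repair and transposon silencing, had 0, 1, 0 and 0 counts in control and 10, 16, 12 and 11 in knockdown. SYCP3 had 2 to 8 counts in control and 4 to 11 in knockdown, and TEX14 2 to 7 and 3 to 12. BRDT had at most 2 counts and HORMAD1 at most 1. At this depth the axis proteins SYCP3 and HORMAD1 were thus near or under the level at which a difference can be tested.

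Of the MAGED, MAGEE, MAGEF and MAGEH genes 4 were tested, 3 rose and 1 fell. MAGED1, an adaptor of receptor signalling, rose 1.42-fold from 79.4, 77.4, 85.6 and 79.1 CPM to 118, 114, 109 and 117 (edgeR adjusted p = 2.52e-11). The median of its 50 nearest tested protein-coding genes was 0.41 on the log2 scale. Its lowest value under the alternatives was 0.1, still called. MAGED2 rose 1.23-fold from 38.7, 37.7, 40.3 and 35.3 CPM to 47.6, 44.0, 47.9 and 46.7 (edgeR adjusted p = 8.81e-06), but after removal of the median change of the 50 nearest tested protein-coding genes its sign turned (-0.20 on the log2 scale, adjusted p = 0.000699). MAGEF1, whose ligase complex acts on an assembly factor of iron-sulphur proteins, fell to 89.6% of control, from 79.9, 78.5, 81.0 and 80.3 CPM to 70.3, 70.5, 71.6 and 74.1 (edgeR adjusted p = 0.000653). That fall was lost with library-size scaling (adjusted p = 0.0727) and turned to 0.01 on the log2 scale after removal of the regional change. MAGEH1 had the largest rise of these, from 90, 107, 71 and 97 counts to 197, 209, 191 and 204 (2.18-fold, edgeR adjusted p = 5.26e-10). MAGEE1 (7 to 19 counts in control, 6 to 8 in knockdown), MAGEE2 and MAGED4B (6 counts or fewer) were not tested.

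SSX2IP, a protein of the centrosome, fell to 63.3% of control, from 66.2, 59.7, 51.1 and 66.0 CPM to 40.2, 38.1, 40.3 and 35.1 (edgeR adjusted p = 1.24e-05). CTAGE15 rose 1.61-fold, from 76, 49, 58 and 65 counts to 105, 110, 80 and 111 (edgeR adjusted p = 5.97e-05), with 98.2% of its stretches of 31 bases found in other genes. CTAGE9 had 10, 6, 14 and 2 counts in control and 23, 7, 11 and 18 in knockdown and was not called (edgeR adjusted p = 0.109). CTAGE1 had none in control and 19, 10, 5 and 8 in knockdown, and CTAGE6 at most 5, and neither was tested.

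Of the 5 DEAD-box genes, DDX46, a splicing helicase, rose 2.00-fold from 87.1, 80.0, 74.6 and 84.9 CPM to 166, 167, 167 and 153 (edgeR adjusted p = 4.20e-16). The median of the 50 nearest tested protein-coding genes was 1.06 on the log2 scale, and with this removed the value of DDX46 was -0.07 and not called (adjusted p = 0.184). DDX41 rose 1.60-fold from 90.9, 83.7, 92.7 and 87.2 CPM to 145, 133, 142 and 146 (edgeR adjusted p = 1.005e-13). The median of its 50 nearest tested protein-coding genes was 0.57 on the log2 scale. Its lowest value under the alternatives was 0.11, still called. DDX49 rose 1.46-fold from 37.2, 39.2, 39.8 and 40.3 to 56.9, 56.7, 59.6 and 55.9 CPM (edgeR adjusted p = 3.87e-11). DDX42 fell to 84.3% of control, from 257, 262, 244 and 264 CPM to 226, 217, 210 and 213 (edgeR adjusted p = 7.76e-07). DDX47 was not called (0.09 on the log2 scale, edgeR adjusted p = 0.101), with 46.6, 48.0, 44.1 and 44.6 CPM in control and 48.2, 48.1, 46.5 and 51.6 in knockdown, but passed under upper-quartile (0.15) and library-size scaling (0.17).

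Members with over 3 counts in every library of a group numbered 36 in control and 51 in knockdown, and those with 3 or fewer in every library of a group numbered 40 in control and 22 in knockdown. From at most 3 throughout control to over 3 throughout knockdown went 9 members: XAGE1B, XAGE3, PAGE1, PAGE4, SOHLH2, DPPA2, TEX15, GAGE1 and CTAGE1. SOHLH1 alone went the other way. Of the 30434 genes measured, 760 went up across this limit and 426 went down, against 9 and 1 of the 90 members. The numbers over and under 3 counts in each group were not counted for the whole table, so whether they are particular to the members was not tested. In 17 members no library exceeded 3 counts.

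Per length of a gene's merged GENCODE exons (CPM per kb), the order of the members changed. This length can exceed that of any single transcript. In control the highest were ATAD2, CTAG2 (98.5 CPM per kb), MAGEA3 (94.6) and MAGEA6 (79.6). In knockdown CTAG2 came first at 195 CPM per kb, followed by XAGE1A at 180, XAGE2 at 163 and ATAD2 at 143, where XAGE1A and XAGE2 had been at ranks 28 and 26 of the 90 in control. SOHLH2 moved from rank 77 to rank 15. TDRD1 moved from rank 9 to rank 26. Summed over the 19 GAGE, PAGE and XAGE genes the level went from 2.74 ± 0.490 CPM to 312 ± 18.3 (SD, n = 4), 114-fold. Most of that knockdown sum came from XAGE1A (193 CPM) and XAGE2 (101 CPM). Over the 70 members left without the broadly expressed and DEAD-box genes the summed level went from 647 ± 3.70 to 1115 ± 42.8 CPM, 1.72-fold. In control cells MAGEA3, MAGEA6, CTAG2 and TDRD1 made up the larger part of this sum.

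**Figure D4:**
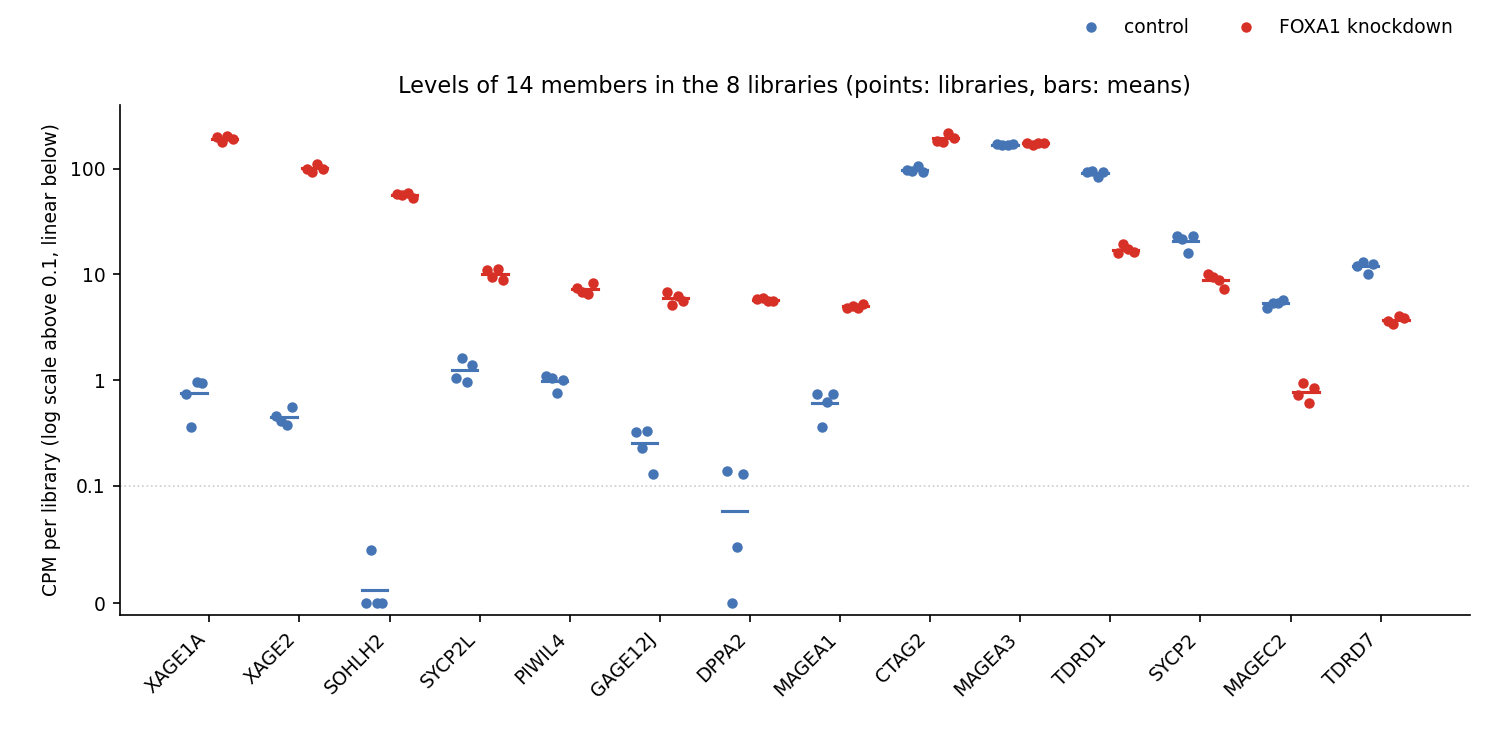
CPM in each of the 8 libraries (vertical axis, logarithmic above 0.1 and linear below) for 14 members, with blue points for control, red points for knockdown and bars for the group means. MAGEA3 overlaps between groups near 170 CPM, XAGE1A, XAGE2 and SOHLH2 rise from under 1 to over 50 CPM, and TDRD1, SYCP2, MAGEC2 and TDRD7 are lower in every knockdown library.

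By chromosome, 16 of the 20 tested members on X rose and 1 fell, with a median log2 fold change of 1.05. Of 444 other protein-coding genes tested on X, 217 rose and 142 fell, with a median of 0.15. Of the 22 tested members elsewhere, 10 rose and 8 fell, with a median of 0.32. This comparison was not tested, since the members of a cluster share sequence and position and the filter on low counts bears on it. XAGE1A, XAGE2, XAGE3, PAGE4, GAGE12J, GAGE2C, GAGE2E and MAGEA1 would not have passed the filter by their control libraries alone. MAGEA11, which was not called, would not have passed by its knockdown libraries alone.

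A wider list of 85 other cancer-testis and germ cell genes did not move one way. The table holds 65 of them, of which 31 were tested, 14 rose and 11 fell, with 7 of at least 2-fold in each direction and a median log2 fold change of 0.18. Of the 31, 80.65% were called, against 77.1% of all tested genes. The largest rises were CT45A10, an X-linked antigen (no count in control, 36 to 52 in knockdown, at least 13.4-fold), GTSF1, a piRNA factor (33 to 36 counts against 1015 to 1194, 5.03 on the log2 scale), and MEIOB, which binds single-stranded DNA in meiosis (12 to 23 against 249 to 330, 4.14). The largest falls were PRDM1, which specifies primordial germ cells and also plasma cells (52 to 68 counts against 0 to 2, at least 17.5-fold lower), TEX19 (196 to 237 against 13 to 30, -3.34 on the log2 scale) and STK31, a Tudor domain kinase (37 to 58 against 3 to 8, -3.23). Each of the 6 had an edgeR adjusted p of at most 8.03e-12 except STK31 (7.04e-11).

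Among 39 regulators of germline gene silencing, all tested, 29 rose and 7 fell, with a median of 0.33 on the log2 scale. In all, 92.31% were called, against 77.1% of all tested genes, of which 39.4% rose and 37.7% fell. TET1, which oxidises methylated cytosine, rose by 3.83 (29 to 40 counts against 410 to 606, edgeR adjusted p = 2.66e-21). The de novo DNA methyltransferases DNMT3B and DNMT3A rose by 2.83 and 2.07. UHRF1, which recruits the maintenance methyltransferase, fell by 1.03 (edgeR adjusted p = 1.64e-17), EHMT1 by 0.28 and MAX, a subunit of a Polycomb complex that represses germline genes, by 0.27. DNMT1, the maintenance methyltransferase, fell by 0.11 (edgeR adjusted p = 0.0141) and is named after its value was seen. What these changes did to the members was not tested. KDM5B, a demethylase expressed in testis and breast cancer that is no member, rose by 0.62.

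Of 14 genes that carry the MAGE homology domain outside the rule or encode ligases and other partners of MAGE proteins, 8 rose and 5 fell. Thus 92.86% were called, against 77.1% of all tested genes. NDN rose by 3.98, the ligase PJA1 by 1.74 and TRIM28, the partner of MAGEC2, by 0.76 on the log2 scale, while LNX1 fell by 1.35, DCAF12 by 0.63 and TRIM37 by 0.46. Of 13 tested partners of the meiotic genes that dividing cells also use, 6 rose and 4 fell, none by 2-fold, with TRIP13 at 0.98 and SMC3 at 0.77 on the log2 scale among the rises. Of 9 bromodomain and chromatin partners of BRDT and ATAD2, 4 rose and 2 fell, with E2F2 at 0.96, E2F3 at 0.68, MYC at 0.64, NCOA3 at -0.38 and ATAD2B at -0.13. Neither of the latter lists held a change of 2-fold, and 76.92% and 66.67% of their tested genes were called.

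Markers of other cell types were read beside these rises. Of the 7 germ cell markers, 3 are in the table: DAZL had at most 4 counts, NANOS3 at most 2 and SYCP3 at most 11 in any library, and their sum was 0.183 to 0.388 CPM in control and 0.213 to 0.648 in knockdown. Of the Sertoli and Leydig markers, INHA went from 1.97 to 137 CPM (log2 fold change 6.12, edgeR adjusted p = 7.05e-29), while AMH had at most 14 counts and STAR at most 6, and their sum was 1.95 to 2.70 CPM in control and 135 to 140 in knockdown. Of 5 fibroblast markers, COL3A1 was at least 30.3-fold higher, COL1A1 fell by 0.31 on the log2 scale, VIM had at most 11 counts, and DCN and COL1A2 had at most 3. The leukocyte marker PTPRC had at most 3 counts and the endothelial marker PECAM1 at most 6. The luminal markers of the line itself fell in sum from 19530 ± 929 to 12130 ± 428 CPM (SD, n = 4), with 5 of 8 lower (ERBB2, KRT19, KRT7, GRB7 and TFAP2B) and 3 higher (KRT8, KRT18 and EPCAM). The part of INHA- or COL3A1-expressing cells in the members' rises was not tested.

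Promoter windows of 250 bases before the RefSeq start were available for 73 of the 90 members. Where a gene has several RefSeq starts the first listed was used, and a window can lie partly inside the GENCODE gene. For 48 of the 73 the bases after the start were found in a GENCODE transcript of the gene. The median number of CpG was 11 over all genes and 15 over the 33 tested members with a window. It was 10 over the 9 members with a window that rose by at least 2-fold (4 to 20) and 33 over the 5 that fell by at least 2-fold (6 to 44), where TDRD7 has 44, TDRD9 35 and SYCP2 33. Both groups are small and their ranges overlap. Letters of a forkhead motif (TGTTTAC or its variants with the letters TGTTTGC and with the letters TATTTAC, either strand), the kind of site FOXA1 binds, were found in 1 of the 33 windows, that of XAGE2, against 8.29% of all promoters. The E-box CACGTG was found in 6 of 33, TDRD1, TDRD12, PAGE4, XAGE3, CTAGE9 and CTAGE15, against 6.49%. The E2F letters TTCCCGC or TTTCCCG were found in 2 of 33 (SYCP2 and DDX42) against 7.73%, and the ETS letters CCGGAAG in 3 of 33 (TDRD1, DDX42 and DDX46) against 8.82%. A match describes the letters of a window and shows no binding.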

How the data were processed

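RNA from 4 control and 4 FOXA1 knockdown samples of SKBR3 was sequenced as paired reads of 101 bases, per the labels' protocols. The authors deposited estimated counts per gene, all whole numbers, in one table of 30434 genes. FastQC, Salmon 1.9, DESeq2 and the build hg38 are named in the submitters' processing notes, without their roles. No summary rows and no columns of other samples were present. The counts, rounded to whole numbers as a formality, were tested in R 4.3.3 with edgeR 4.0.16: filterByExpr with a minimum of 10 counts and a total of 15 left 16430 genes, libraries were scaled by TMM, and glmQLFit with robust estimation and glmQLFTest compared knockdown with control, with a prior count of 0.125. The biological coefficient of variation was 4.56%. SD values are of CPM. Standard errors come from log2 CPM with 0.5 added to each count. Folds against a group with 3 or fewer counts in every library are bounds against the largest floor of 3 counts. The exact permutation of a single gene over the libraries cannot give a p under 0.0286, which it gave for every tested member whose groups did not overlap.

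Groups come from the sample titles. Positions were taken from GENCODE 29 by Ensembl identifier (29358 matched, 96.5%), and promoter windows from RefSeq GRCh38.p14. Shared sequence is the share of 31-base words of a gene's GENCODE transcripts that occur in another gene's. Whether counting used strand is not given in the sources used here. The members and lists were chosen with earlier results of these data known. Every member is named, with its value in each library where a group's mean reached 50 counts or the change was called and at least 2-fold. Of each other list up to 3 called rises and 3 called falls are named, where a group averaged 20 counts or more. Some genes that this covers are not reported here. Alternatives were other scalings and filters (none, or a mean of at least 50 counts), DESeq2 1.42.0, limma voom (limma 3.58.1), no robust estimation, a replicate block, a threshold of 0.01, removal of the median change of the 50 nearest tested protein-coding genes, other member rules and leaving out each library. Summed copies and the omission of the DEAD-box genes were added after seeing the data. The test was checked on simulated counts.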

Additional observations from a re-analysis of the deposited data

Results flagged for a closer look

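In 5 of 82 groups of 4 libraries, the highest or the lowest library lay apart from the other 3 by more than Dixon's criterion at 95% allows. Chance alone gives about 4.1 of 82. DDX46 was lowest in knockdown replicate 4 at 153.3 CPM, with the others between 165.6 and 166.9. MAGEA6 was lowest in knockdown replicate 2 at 153.0 CPM, with the others between 164.1 and 165.0. SOHLH2 was highest in control replicate 2 at 0.0454 CPM, which is 1 count against none in the others. TDRD5 was highest in control replicate 2 at 12.94 CPM, with the others between 12.35 and 12.41. TDRD9 was lowest in control replicate 3 at 0.6173 CPM, with the others between 1.034 and 1.053. No cause was tested.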

How the results depend on the processing

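Of the 42 tested members, 32 kept their call under every alternative fit and left-out library that tested them, and 10 changed under at least 1. With no filter on low counts 90 members were tested, 41 rose and the median log2 fold change was 0.972. With the median change of the 50 nearest tested protein-coding genes removed, the median was 0.407 and 7 calls changed: that of MAGED2 reversed (-0.203), DDX46 (-0.066) and MAGEF1 (0.012) turned sign and lost theirs, ATAD2 (0.235) turned sign and gained one, TDRD12 lost its call, and MAGEA3 and DDX47 gained one. Without the broadly expressed genes 5 of 32 fell, with a median of 0.958. Leaving out each library gave 26 to 32 members higher, 9 to 10 lower and medians of 0.629 to 0.854, over 42 to 48 tested members. TDRD12 lost its call with DESeq2 and without each of 5 libraries, and MAGEF1 with library-size scaling. Calls were gained by MAGEA2B (limma voom, no robust estimation), MAGEA11 (without control replicate 1 or knockdown replicate 4), CTAGE9 (no filter, and without control replicate 3 or knockdown replicate 2) and ATAD2 (without control replicate 3). The scalings moved the median of all genes by at most 0.0836. The replicate block, which pairs libraries by number, gave 26 members higher and 9 lower with a median of 0.684, and changed 0 member calls. The numbers were not used as pairs, since the deviations of same-numbered libraries correlated by 0.02, 0.0563, -0.0307 and -0.00064. Low counts limit the 48 untested members, none of which exceeded 64 counts in a library.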
